A study of Drosophila melanogaster with 16 samples.

Results

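The 34 genes described here are the Jonah genes, the Greek-letter trypsins and a few related digestive serine proteases of Drosophila melanogaster. They were taken by name from the 17753 genes in every abundance table, and all 34 names were found. They comprise 16 Jonah genes, 11 trypsins named with Greek letters, the trypsin copies CG30025 and CG30031, and Try29F, yip7, Ser6, Ser8 and Ser12. The study measured polyadenylated RNA from whole embryos and asks, per its title, what Lola-I does at promoters during development. Lola-I is an isoform of the transcription factor gene lola. The ORC4 group holds 4 libraries of embryos aged 14 to 17 h, labelled as the Lola-I mutant ORC4, with zygosity not stated. The ORE50/ORC4 group holds 4 libraries of the same age from transheterozygotes, which carry the ORE50 allele on 1 homologue and ORC4 on the other. Wild type was the OregonR strain, with 5 libraries at 14 to 17 h and 3 at 2 to 4 h. ORC4 is therefore common to both mutant groups, and no rescued line or second wild-type strain was analysed here.

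Digestive serine proteases of this family are secreted as inactive zymogens and cut proteins in the gut lumen with a histidine, aspartate and serine triad. Trypsins cleave after basic residues, and Jonah genes encode chymotrypsin-like relatives expressed in the larval midgut. The embryonic midgut is an endodermal tube that encloses the yolk and differentiates before the larva hatches and feeds. Whole-embryo RNA does not show which cells a transcript came from.

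The genes fall into 12 loci when members on a chromosome with gaps of at most 50000 bases are chained, in coordinates of the BDGP6 annotation. The largest is the trypsin cluster on 2R, from 11336840 to 11357537, with 13 genes in the order lambdaTry, kappaTry, zetaTry, etaTry, thetaTry, alphaTry, epsilonTry, betaTry, gammaTry, CG30031, CG30025, deltaTry and iotaTry. The Jon65A cluster on 3L, from 6035216 to 6054443, holds yip7, Jon65Aiv, Jon65Aiii, Jon65Aii and Jon65Ai. Jon25Biii, Jon25Bii and Jon25Bi lie on 2L from 4949941 to 4955144, and Jon99Ciii, Jon99Cii and Jon99Ci on 3R from 29922216 to 29926189. Jon99Fii and Jon99Fi lie on 3R from 30487016 to 30489895, and Jon66Ci and Jon66Cii on 3L from 8391540 to 8393649. The single-gene loci are Ser12 and Try29F on 2L, Jon44E and Ser8 on 2R, Jon74E on 3L and Ser6 on X.

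All 34 are annotated as protein coding, and 28 have no intron. Near-identical copies share reads, which the quantifier splits, and the split shows as fractional counts. Counts were whole in every library for 20 members and fractional in 9 or more of the 16 libraries for 11. Those 11 are alphaTry, betaTry, gammaTry, CG30031, CG30025 and deltaTry in the trypsin cluster, Jon99Ciii with Jon99Cii, Jon99Fii with Jon99Fi, and Ser6. Values of single genes among them are uncertain, so sums are given as well, except for Ser6, which has no other member at its locus to be summed with. Try29F, Jon44E, deltaTry and Ser8 overlap another annotated gene. Jon74E was listed with a length of 2389 bases against an annotated span of 1051, so its level was underestimated if that span is right.

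The libraries held between 9025882 and 32521626 estimated counts. The 4 ORC4 libraries and wild-type libraries 1, 2 and 3 at 14 to 17 h had 27298377 or more, while the 4 ORE50/ORC4 libraries and wild-type libraries 5 and 6 had 13226262 or fewer. Depth class therefore coincides with genotype between the mutants, while wild type holds both classes. All lola isoforms share a single value in the tables, which ran from 39.2 to 61.3 TPM in ORC4 embryos, from 26.1 to 36.8 TPM in ORE50/ORC4 embryos and from 36.7 to 47.0 TPM in wild type of that age, so it does not check the labels. The labels do not say that replicates came from separate embryo collections, and p-values then measure the spread between these libraries, which may be technical.

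The protease transcripts were far scarcer in either mutant than in wild type at 14 to 17 h, but the shortfall was spread very unevenly over the genes. TPM is the transcript abundance scaled to gene length and to the library total, so levels of different genes can be set side by side. Summed over the 34 members, the level was 1594 ± 509 TPM in ORC4 embryos (SD, n = 4) and 1037 ± 229 TPM in ORE50/ORC4 embryos (SD, n = 4), against 5005 ± 1570 TPM in wild type (SD, n = 5). Single libraries ran from 929.9 to 2093 TPM in ORC4 embryos and from 823 to 1336 TPM in ORE50/ORC4 embryos, against 2978 to 7302 TPM in wild type, so neither mutant overlapped wild type. In whole embryos, fewer cells of a type and less RNA per cell cannot be told apart.

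**Figure D1:**
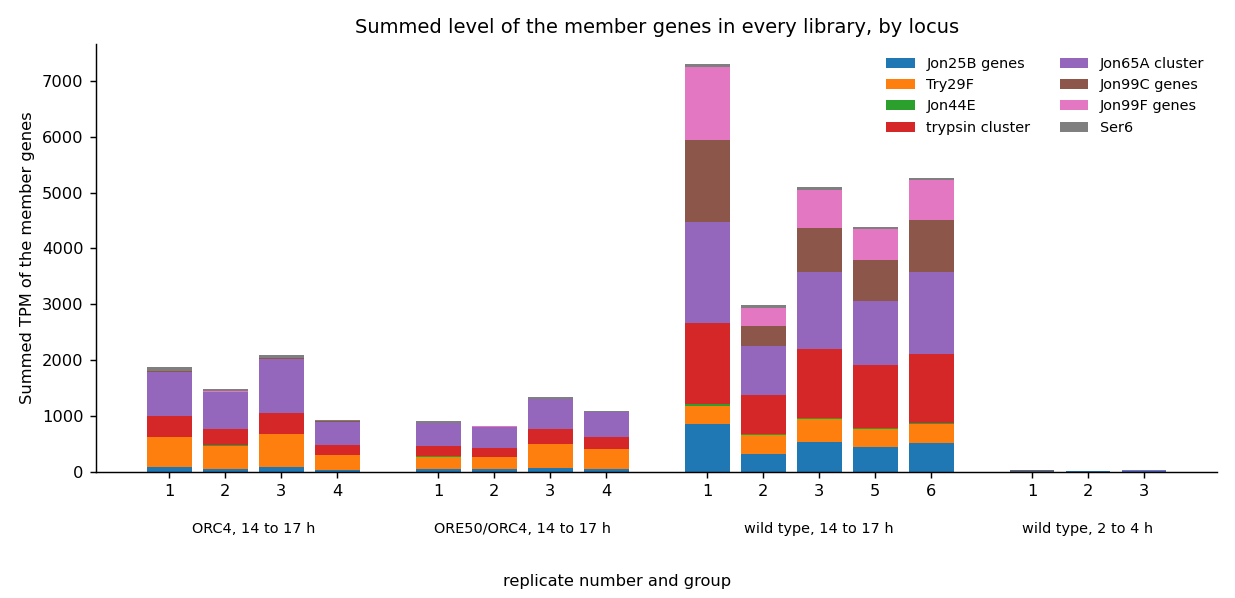
Summed TPM of the member genes in each library, stacked by locus, with libraries grouped by genotype and age and numbered by replicate. The Jon99C and Jon99F genes (brown and pink) average 853 and 718 TPM in wild type at 14 to 17 h and are hardly visible in either mutant, while Try29F (orange) and the Jon65A cluster (purple) remain the main components there. At 2 to 4 h no library exceeds 27.8 TPM.

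Of the 34 members, 30 passed the filter on low counts and were tested. Ser8 and Ser12 had 0 counts in every library of the series, and Jon66Ci and Jon66Cii were too low. The filter was passed through wild type in part: 5 of the 30 had fewer than 10 counts in every ORC4 library, 15 in every ORE50/ORC4 library and 0 in every wild-type library of that age, so such members had to be low in the mutants to differ at all. With edgeR's quasi-likelihood test at an adjusted p under 0.05, 23 of the 30 were lower in ORC4 embryos than in wild type and 0 higher, beside 17.2% of all 11431 tested genes called lower and 15.5% called higher. In ORE50/ORC4 embryos 26 of the 30 were lower and 0 higher, beside 27.0% of all tested genes called lower and 27.0% higher. At least 16-fold lower were 14 members in ORC4 embryos, beside 1.08% of all tested genes, and 15 in ORE50/ORC4 embryos, beside 1.88%. Copies with split reads count singly in these numbers, although their values are not separate measurements. On the log2 scale the sum of the 6 trypsins with split reads changed by -4.05 in ORC4 and -5.69 in ORE50/ORC4 embryos. The sum of Jon99Ciii and Jon99Cii changed by -7.20 and -8.99, and that of Jon99Fii and Jon99Fi by -9.12 and -10.7. All ORC4 libraries were below all wild-type libraries for 18 of the 30, beside 13.7% of all tested genes, and all ORE50/ORC4 libraries for 25, beside 25.0%. The median log2 fold change of the 30 was -3.30 in ORC4 and -4.20 in ORE50/ORC4 embryos, while that of all tested genes was 0.0044 and 0.011. The 5 wild-type libraries serve both mutants, whose changes are therefore set side by side below and are not independent of each other. With limma on log2(TPM + 1), 3522 of all tested genes were lower and 2164 higher in ORE50/ORC4 embryos, against 3087 lower and 3083 higher with edgeR, and RLE scaling in edgeR gave 3234 lower and 2906 higher. The cause of this difference was not tested.

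**Figure D2:**
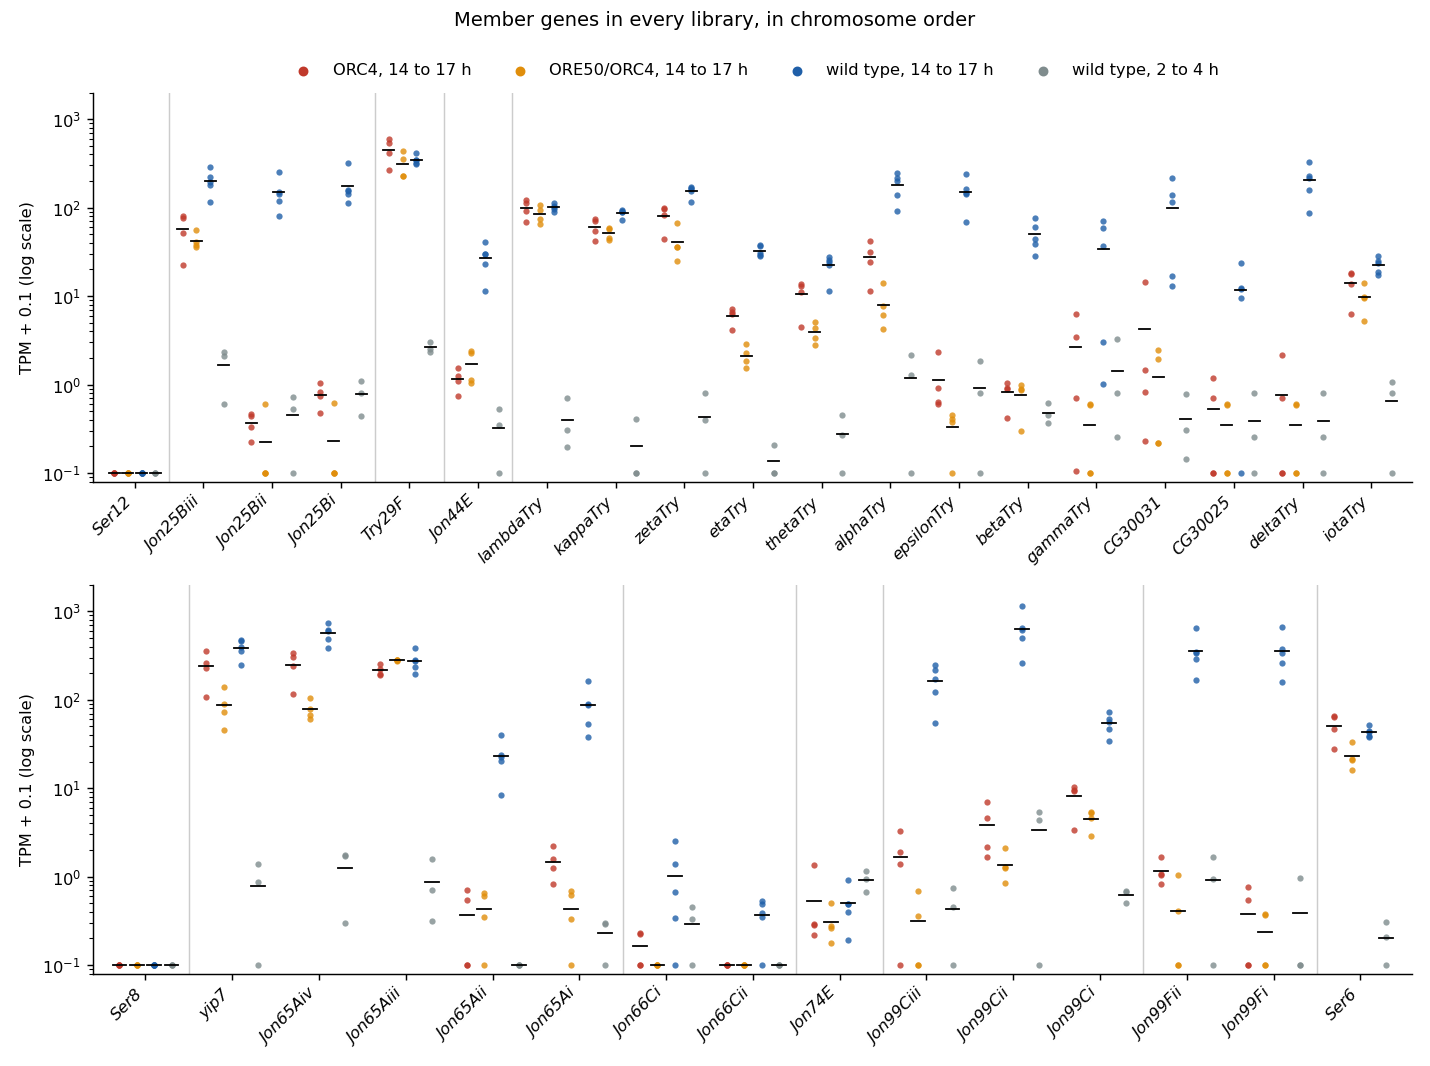
TPM plus 0.1 on a log scale for the 34 members in chromosome order, each point a library and each bar the group mean, for ORC4, ORE50/ORC4 and wild type at 14 to 17 h and wild type at 2 to 4 h. Grey lines separate loci. Levels of lambdaTry, Try29F and Jon65Aiii overlap in the late groups, while Jon25Bii, Jon25Bi, deltaTry, Jon99Fii and Jon99Fi lie at 2.05 TPM or less in every mutant library.

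In the values that follow, libraries are given in the order of their replicate numbers, 1 to 4 in each mutant and 1, 2, 3, 5 and 6 in wild type, all at 14 to 17 h. The Jonah genes come first. At the Jon25B locus, Jon25Bi and Jon25Bii were nearly absent from the mutants while their neighbour Jon25Biii kept a measurable part of its wild-type level. Jon25Biii had 76.1, 51.2, 80.5 and 22.4 TPM in ORC4 embryos and 35.6, 38.1, 55.2 and 40.7 TPM in ORE50/ORC4 embryos, against 286, 116, 225, 178 and 193 TPM in wild type. It was at 28.8% of the wild-type mean in ORC4 and 21.2% in ORE50/ORC4 embryos, and no mutant library reached the wild-type range. Jon25Bii had 0.336, 0.367, 0.2303 and 0.124 TPM in ORC4 embryos and 0.494, 0, 0 and 0 TPM in ORE50/ORC4 embryos, against 254, 81.4, 144, 118 and 152 TPM in wild type. The ORC4 libraries together held 9 counts of Jon25Bii and the ORE50/ORC4 libraries 2, all of these in library 1. Jon25Bi had 0.933, 0.382, 0.7198 and 0.644 TPM in ORC4 embryos and 0.515, 0, 0 and 0 TPM in ORE50/ORC4 embryos, against 317, 111, 153, 143 and 158 TPM in wild type. Library 1 also held both counts of Jon25Bi in ORE50/ORC4 embryos. The log2 fold change in ORC4 embryos was -1.84 (SE 0.35, adjusted p = 0.00157) for Jon25Biii, -9.10 (SE 0.48, adjusted p = 1.71e-08) for Jon25Bii and -8.05 (SE 0.42, adjusted p = 1.74e-08) for Jon25Bi. In ORE50/ORC4 embryos Jon25Biii fell by 2.15 on the log2 scale (SE 0.37, adjusted p = 0.000375). With only 2 counts each, Jon25Bii was 1083-fold lower there per depth (95% counting interval 299.7-fold to 8941-fold) and Jon25Bi 1238-fold lower (343-fold to 10223-fold). Such intervals cover counting error only. Summed over the locus, the log2 fold change was -3.29 (SE 0.38, adjusted p = 2.91e-05) in ORC4 and -3.61 (SE 0.40, adjusted p = 1.22e-05) in ORE50/ORC4 embryos.

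The Jon65A cluster was the best preserved of the multi-gene loci, and its genes split sharply. Jon65Ai and Jon65Aii, at its right end in chromosome order, were at 1.597% or less of wild type in either mutant, whereas Jon65Aiii next to them was at 78.4% in ORC4 and 102% in ORE50/ORC4 embryos. yip7 had 263, 228, 356 and 107 TPM in ORC4 embryos and 72.9, 46.03, 139.6 and 88.8 TPM in ORE50/ORC4 embryos, against 470.02, 249, 395, 354 and 458 TPM in wild type. The gene yip7, named for an interaction with the Yippee protein, encodes a serine protease and is among the most abundant members. ORC4 libraries 1 and 3 lay within the wild-type range of yip7, and its log2 fold change of -0.74 (95% interval -1.53 to 0.050, adjusted p = 0.137) was not called in ORC4 embryos. It was called in ORE50/ORC4 embryos at -2.04 (SE 0.39, adjusted p = 0.000827). Jon65Aiv had 303, 240.5, 342 and 117 TPM in ORC4 embryos and 60.6, 67.5, 105 and 78.4 TPM in ORE50/ORC4 embryos, against 745, 388, 606, 484 and 616 TPM in wild type. Neither mutant overlapped wild type for Jon65Aiv, which changed by -1.23 (SE 0.30, adjusted p = 0.00766) in ORC4 and -2.77 (SE 0.33, adjusted p = 2.03e-05) in ORE50/ORC4 embryos. Jon65Aiii had 221, 194, 257 and 193 TPM in ORC4 embryos and 284, 274, 285 and 285 TPM in ORE50/ORC4 embryos, against 389, 194, 282, 233 and 278 TPM in wild type. The ORE50/ORC4 libraries of Jon65Aiii all lay inside the wild-type range, close to each other, and ORC4 libraries 2 and 4 lay just below it. Its log2 fold change was -0.41 (95% interval -0.78 to -0.043, adjusted p = 0.0801) in ORC4 and 0.12 (95% interval -0.24 to 0.49, adjusted p = 0.5603) in ORE50/ORC4 embryos, neither called. Leaving out ORC4 library 3 or wild-type library 2 gave a call in ORC4 embryos, at -0.52 (adjusted p = 0.0412) and -0.53 (adjusted p = 0.0156). Jon65Aii had 0.447, 0.611, 0 and 0 TPM in ORC4 embryos and 0.247, 0.506, 0 and 0.561 TPM in ORE50/ORC4 embryos, against 39.7, 8.24, 22.3, 20.5 and 23.96 TPM in wild type. Jon65Ai had 0.724, 2.15, 1.49 and 1.14 TPM in ORC4 embryos and 0, 0.234, 0.591 and 0.519 TPM in ORE50/ORC4 embryos, against 163, 37.7, 87.4, 53.4 and 88.997 TPM in wild type. Both genes were below wild type in every mutant library, and wild-type library 1 had the highest and library 2 the lowest level of each. Jon65Aii changed by -6.39 (SE 0.66, adjusted p = 9.86e-06) and -5.93 (SE 0.74, adjusted p = 2.97e-05) and Jon65Ai by -6.02 (SE 0.49, adjusted p = 1.11e-06) and -7.94 (SE 0.66, adjusted p = 1.03e-06), in each case with ORC4 first and ORE50/ORC4 after it. The sum over the cluster fell by 0.98 in ORC4 (adjusted p = 0.0109) and by 1.51 in ORE50/ORC4 embryos (adjusted p = 0.000388), on the log2 scale.

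The Jon99C genes included the most abundant member of wild type, Jon99Cii, which was nearly lost. Jon99Cii had 6.94, 1.58, 4.49 and 2.08 TPM in ORC4 embryos and 2.004, 1.15, 0.753 and 1.18 TPM in ORE50/ORC4 embryos, against 1155, 259, 619, 501 and 646 TPM in wild type. Jon99Ciii had 3.14, 1.29, 1.82 and 0 TPM in ORC4 embryos and 0, 0.257, 0.588 and 0 TPM in ORE50/ORC4 embryos, against 249.6, 54.6, 124, 169.8 and 217 TPM in wild type. Reads of these 2 genes were split between them, but their sum behaved alike, with a log2 fold change of -7.20 (SE 0.54, adjusted p = 5.11e-07) in ORC4 and -8.99 (SE 0.66, adjusted p = 3.41e-07) in ORE50/ORC4 embryos. Jon99Ci had 9.36, 9.11, 10.4 and 3.26 TPM in ORC4 embryos and 4.49, 2.76, 5.23 and 5.11 TPM in ORE50/ORC4 embryos, against 56.2, 34.4, 46.8, 72.3 and 61.1 TPM in wild type. Jon99Ci, 610 bases from Jon99Cii and transcribed from the same strand, kept 14.8% and 8.12% of the wild-type mean in ORC4 and ORE50/ORC4 embryos. Its log2 fold change was -2.80 (SE 0.34, adjusted p = 3.70e-05) in ORC4 and -3.54 (SE 0.38, adjusted p = 9.33e-06) in ORE50/ORC4 embryos, and no mutant library came near the wild-type range.

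The Jon99F pair was nearly lost as well, and Jon99Fi had the most negative fitted change of all members. Jon99Fii had 0.959, 0.7299, 1.57 and 0.956 TPM in ORC4 embryos and 0.304, 0, 0.934 and 0 TPM in ORE50/ORC4 embryos, against 647, 169, 335, 286 and 349.7 TPM in wild type. Jon99Fi had 0, 0.444, 0.661 and 0 TPM in ORC4 embryos and 0, 0.2797, 0 and 0.266 TPM in ORE50/ORC4 embryos, against 672, 158, 335, 260.3 and 379.9 TPM in wild type. Neither gene exceeded 1.57 TPM in any mutant library, against at least 158 TPM in each wild-type library. Their reads were split between the copies, and the sum of both changed by -9.12 (SE 0.49, adjusted p = 1.97e-08) in ORC4 and -10.70 (SE 0.61, adjusted p = 3.51e-08) in ORE50/ORC4 embryos on the log2 scale. For Jon99Fi in ORE50/ORC4 embryos, with 2.17 estimated counts over the group, the ratio to wild type was 2551-fold lower per depth (95% counting interval 738-fold to 18665-fold).

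Of the remaining Jonah genes, Jon44E was called lower in each mutant and the others were barely detected. Jon44E had 1.43, 0.993, 1.14 and 0.646 TPM in ORC4 embryos and 2.15, 1.03, 0.928 and 2.28 TPM in ORE50/ORC4 embryos, against 40.7, 11.4, 23.1, 29.6 and 29.5 TPM in wild type. All mutant libraries of Jon44E lay below wild type, with log2 fold changes of -4.71 (SE 0.41, adjusted p = 1.83e-06) in ORC4 and -3.96 (SE 0.42, adjusted p = 7.71e-06) in ORE50/ORC4 embryos. Its span overlaps CG8586 on the other strand, and whether the counting used strand is not given in the sources used here. Jon74E had 0.118 to 1.24 TPM in ORC4 embryos and 0.0784 to 0.406 TPM in ORE50/ORC4 embryos, against 0.0928 to 0.826 TPM in wild type, and was not called, with 95% intervals of the log2 fold change of -1.46 to 1.60 and -2.96 to 1.10. Jon66Ci ran from 0 to 0.133 TPM in ORC4 embryos and was 0 in the 4 ORE50/ORC4 libraries, against 0 to 2.45 TPM in wild type. Jon66Cii was 0 in all 8 mutant libraries, against 0 to 0.436 TPM in wild type.

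In the trypsin cluster the change from wild type differed greatly from gene to gene along the chromosome. The genes at its outer ends, lambdaTry, kappaTry and zetaTry on the left and iotaTry on the right, kept 26.5% or more of their wild-type level in either mutant. Those between them were at 18.2% or less in either mutant, apart from thetaTry at 47.6% in ORC4 embryos. lambdaTry had 114, 90.9, 123 and 69.5 TPM in ORC4 embryos and 73.9, 65.2, 106 and 94.9 TPM in ORE50/ORC4 embryos, against 97.2, 105, 111, 90.3 and 103 TPM in wild type. No call was made for lambdaTry, the left-most gene, whose log2 fold change was -0.085 (95% interval -0.51 to 0.34, adjusted p = 0.772) in ORC4 and -0.16 (95% interval -0.59 to 0.28, adjusted p = 0.532) in ORE50/ORC4 embryos. kappaTry had 70.8, 54.6, 75.3 and 42.04 TPM in ORC4 embryos and 45.8, 42.7, 56.6 and 58.7 TPM in ORE50/ORC4 embryos, against 92.5, 72.3, 93.2, 89.5 and 89.5 TPM in wild type. It was called lower at -0.58 (SE 0.19, adjusted p = 0.0311) in ORC4 and -0.69 (SE 0.19, adjusted p = 0.00925) in ORE50/ORC4 embryos. The call for kappaTry in ORC4 embryos was lost without any of wild-type libraries 1, 3, 5 or 6 or ORC4 libraries 2 or 4, with values from -0.43 to -0.58 and adjusted p from 0.0538 to 0.0840. It was also lost against the wild-type libraries 1, 2 and 3 alone, at -0.54 (adjusted p = 0.0943). With ORC4 library 4 and all ORE50/ORC4 libraries left out of that fit as well, it was lost at -0.37 (adjusted p = 0.132). zetaTry had 96.3, 82.3, 99.9 and 43.8 TPM in ORC4 embryos and 36.05, 24.7, 67.1 and 36.03 TPM in ORE50/ORC4 embryos, against 168, 116, 164, 171 and 155 TPM in wild type. Every mutant library of zetaTry lay below every wild-type library, with log2 fold changes of -0.99 (SE 0.30, adjusted p = 0.0241) in ORC4 and -1.82 (SE 0.32, adjusted p = 0.000494) in ORE50/ORC4 embryos. Without ORC4 library 2 or 4 the ORC4 value was -1.02 (adjusted p = 0.0545) or -0.78 (adjusted p = 0.0557), and against wild-type libraries 1, 2 and 3 alone it was -0.92 (adjusted p = 0.0744).

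etaTry had 6.56, 6.21, 6.97 and 3.98 TPM in ORC4 embryos and 1.45, 1.73, 2.18 and 2.74 TPM in ORE50/ORC4 embryos, against 30.4, 29.2, 38.04, 28.5 and 36.98 TPM in wild type. The levels of etaTry formed separate ranges in the 3 genotypes, lowest in ORE50/ORC4 embryos, and its log2 fold changes of -2.51 (SE 0.20, adjusted p = 1.07e-06) in ORC4 and -3.93 (SE 0.25, adjusted p = 9.46e-08) in ORE50/ORC4 embryos had small errors. thetaTry had 13.03, 11.03, 13.7 and 4.36 TPM in ORC4 embryos and 4.25, 2.699, 4.98 and 3.22 TPM in ORE50/ORC4 embryos, against 23.9, 11.4, 22.3, 27.5 and 25.4 TPM in wild type. ORC4 libraries 1 and 3 of thetaTry overlapped wild-type library 2, the lowest of that group. Its change was -1.11 (SE 0.34, adjusted p = 0.0253) in ORC4 and -2.45 (SE 0.40, adjusted p = 0.000254) in ORE50/ORC4 embryos, and the ORC4 call was lost without ORC4 library 2 (-1.15, adjusted p = 0.0547) or wild-type library 5 (-1.01, adjusted p = 0.0510). Against wild-type libraries 1, 2 and 3 alone the ORC4 change of thetaTry was -0.90 (adjusted p = 0.103). With ORC4 library 4 and all ORE50/ORC4 libraries left out of that fit as well, it was -0.62 (adjusted p = 0.153). iotaTry had 17.6, 13.6, 18.2 and 6.25 TPM in ORC4 embryos and 9.43, 5.12, 14.002 and 9.78 TPM in ORE50/ORC4 embryos, against 18.7, 17.3, 24.8, 23.4 and 28.005 TPM in wild type. For iotaTry, at the right end, the ORC4 change of -0.73 (95% interval -1.45 to -0.00898, adjusted p = 0.1099) was not called and the ORE50/ORC4 change was -1.13 (SE 0.36, adjusted p = 0.01798). That call was lost without ORE50/ORC4 library 2, at -0.88 (adjusted p = 0.0537).

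The middle of the cluster, from alphaTry to deltaTry, carried the large losses. epsilonTry had 2.22, 0.539, 0.507 and 0.817 TPM in ORC4 embryos and 0.272, 0, 0.352 and 0.309 TPM in ORE50/ORC4 embryos, against 238, 69.2, 145, 143 and 164 TPM in wild type. Counts of epsilonTry were whole in every library, so its value rests on reads assigned to it alone. It changed by -7.23 (SE 0.46, adjusted p = 1.07e-07) in ORC4 embryos, and in ORE50/ORC4 embryos, with 3 counts over the 4 libraries, it was 642-fold lower per depth (95% counting interval 219.5-fold to 3111-fold). alphaTry had 41.98, 24.5, 31.6 and 11.3 TPM in ORC4 embryos and 7.61, 5.999, 13.96 and 4.14 TPM in ORE50/ORC4 embryos, against 140.1, 91.5, 202, 246 and 218 TPM in wild type. All mutant libraries of alphaTry were below wild type, at -2.77 (SE 0.42, adjusted p = 0.000264) in ORC4 and -4.43 (SE 0.50, adjusted p = 1.33e-05) in ORE50/ORC4 embryos. betaTry had 0.947, 0.819, 0.799 and 0.321 TPM in ORC4 embryos and 0.788, 0.202, 0.776 and 0.896 TPM in ORE50/ORC4 embryos, against 77.1, 28.4, 39.1, 43.7 and 60.8 TPM in wild type. The losses of betaTry were alike in size, at -6.12 (SE 0.40, adjusted p = 1.19e-07) in ORC4 and -6.14 (SE 0.45, adjusted p = 3.17e-07) in ORE50/ORC4 embryos. deltaTry had 0, 2.05, 0 and 0.612 TPM in ORC4 embryos and 0.495, 0, 8.51e-08 and 0.493 TPM in ORE50/ORC4 embryos, against 330.04, 86.997, 227, 158 and 216 TPM in wild type. CG30031 had 14.2, 0.713, 1.35 and 0.131 TPM in ORC4 embryos and 0.116, 1.86, 2.33 and 0.118 TPM in ORE50/ORC4 embryos, against 214, 12.9, 115, 16.9 and 139 TPM in wild type. CG30031, a trypsin copy without a Greek letter, ranged 16.7-fold among wild-type libraries, and ORC4 library 1 lay above 1 of them. gammaTry had 0.00383, 3.38, 6.199 and 0.612 TPM in ORC4 embryos and 0.495, 0, 8.51e-08 and 0.493 TPM in ORE50/ORC4 embryos, against 0.912, 59.2, 36.3, 70.97 and 2.94 TPM in wild type. CG30025 had 0, 0, 1.095 and 0.612 TPM in ORC4 embryos and 0.495, 0, 8.51e-08 and 0.493 TPM in ORE50/ORC4 embryos, against 23.8, 11.9, 12.3, 9.52 and 0 TPM in wild type. In ORE50/ORC4 embryos gammaTry, CG30025 and deltaTry were listed with the same value in each library.

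Because of this split, the sum of alphaTry, betaTry, gammaTry, CG30031, CG30025 and deltaTry is the firmer measure. It was 57.1, 31.5, 41.1 and 13.6 TPM in ORC4 embryos and 10.003, 8.06, 17.1 and 6.63 TPM in ORE50/ORC4 embryos, against 786, 290.9, 631, 545 and 636 TPM in wild type. Every mutant library lay far below every wild-type library. The sum changed by -4.05 (SE 0.42, adjusted p = 1.01e-05) in ORC4 and -5.69 (SE 0.49, adjusted p = 1.38e-06) in ORE50/ORC4 embryos on the log2 scale. Taken singly, deltaTry changed by -8.32 (SE 0.66, adjusted p = 7.62e-07) and -9.19 (SE 0.80, adjusted p = 1.51e-06), CG30031 by -4.62 (SE 1.08, adjusted p = 0.00574) and -6.63 (SE 1.43, adjusted p = 0.00185), gammaTry by -3.80 (SE 1.13, adjusted p = 0.02098) and -6.61 (SE 1.69, adjusted p = 0.00524), and CG30025 by -4.86 (SE 0.96, adjusted p = 0.00196) and -5.09 (SE 1.17, adjusted p = 0.00273), with ORC4 before ORE50/ORC4. The call for gammaTry in ORC4 embryos was lost without ORC4 library 2 (-3.97, adjusted p = 0.0505) or library 4 (-3.46, adjusted p = 0.0562), and with limma on log2(TPM + 0.1) that of gammaTry was at -3.60 (adjusted p = 0.0787) and that of CG30025 at -4.07 (adjusted p = 0.0502), neither called. Over the whole cluster of 13 genes the log2 fold change was -1.85 (SE 0.28, adjusted p = 0.000233) in ORC4 and -2.29 (SE 0.28, adjusted p = 2.97e-05) in ORE50/ORC4 embryos.

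**Figure D3:**
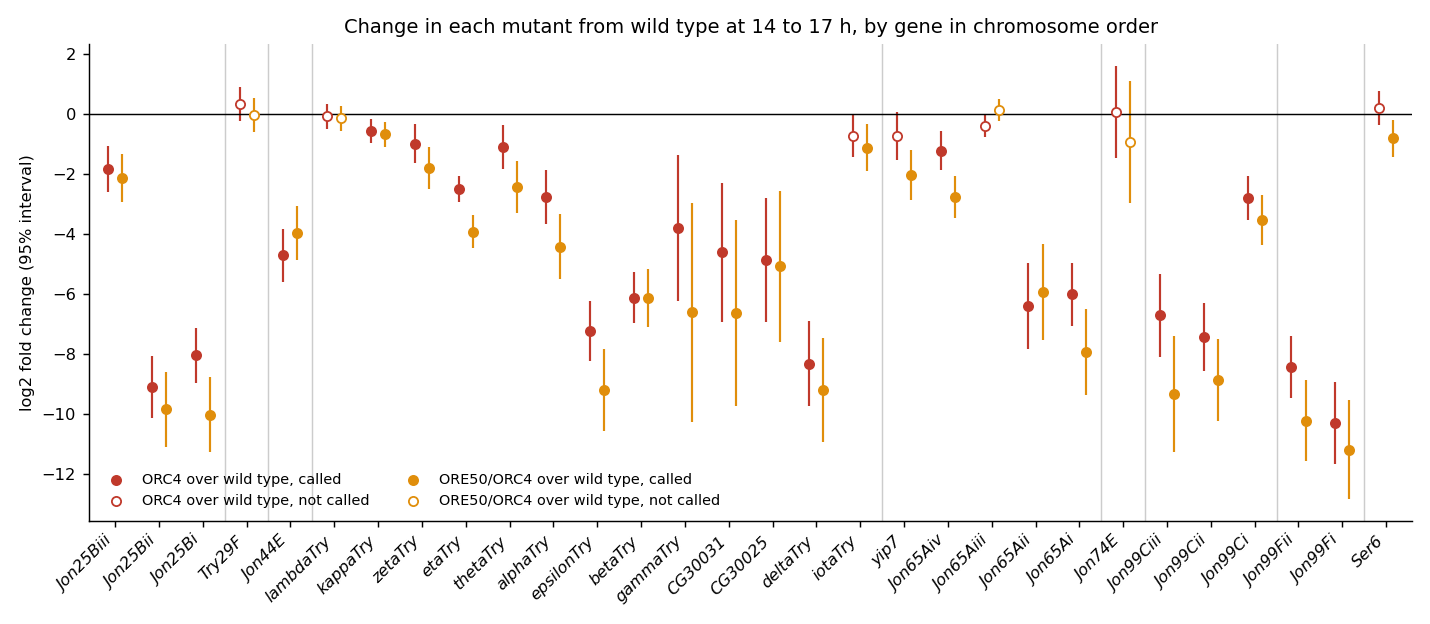
Fitted log2 fold change of each tested member from wild type at 14 to 17 h, with its 95% interval, in chromosome order, for ORC4 (red) and ORE50/ORC4 embryos (orange). Filled points passed an adjusted p under 0.05 and open points did not, and grey lines separate loci. Changes run from 0.33 for Try29F in ORC4 embryos to -11.19 for Jon99Fi in ORE50/ORC4 embryos, and genes with changes over 16-fold apart stand side by side in the Jon25B, trypsin, Jon65A and Jon99C loci.

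Outside the clusters, Try29F, a predicted trypsin, and Ser6, a chymotrypsin-like serine protease, were not called in ORC4 embryos. Try29F had 539, 414, 593 and 269 TPM in ORC4 embryos and 231, 226, 441 and 355 TPM in ORE50/ORC4 embryos, against 316, 348, 416, 316 and 343 TPM in wild type. The groups overlapped for Try29F, and its log2 fold change was 0.33 (95% interval -0.23 to 0.89, adjusted p = 0.357) in ORC4 and -0.045 (95% interval -0.61 to 0.52, adjusted p = 0.896) in ORE50/ORC4 embryos. Ser6 had 65.9, 47.2, 63.02 and 27.9 TPM in ORC4 embryos and 21.4, 15.98, 33.2 and 20.98 TPM in ORE50/ORC4 embryos, against 43.5, 44.8, 51.1, 38.5 and 38.1 TPM in wild type. All 4 ORE50/ORC4 libraries of Ser6 were below wild type while 3 of the 4 ORC4 libraries were above the wild-type median, with log2 fold changes of 0.19 (95% interval -0.38 to 0.75, adjusted p = 0.621) in ORC4 and -0.82 (SE 0.28, adjusted p = 0.0246) in ORE50/ORC4 embryos. The ORE50/ORC4 call was lost without ORE50/ORC4 library 1, 2 or 4 or wild-type library 3, with values from -0.64 to -0.80 and adjusted p from 0.0536 to 0.0773. It was also lost against the equally shallow wild-type libraries 5 and 6 alone, at -0.68 (adjusted p = 0.172). Counts of Ser6 were fractional in 11 of the 16 libraries and were not summed with another gene, so its values carry that uncertainty.

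Near neighbours could differ widely in their change. Among the 21 neighbouring pairs of tested members within loci, the log2 fold changes of the partners differed by 4 or more, that is 16-fold, in 5 pairs in ORC4 and in 6 in ORE50/ORC4 embryos. These were Jon25Biii with Jon25Bii, 1475 bases apart, alphaTry with epsilonTry, 117 bases apart, deltaTry with iotaTry, 591 bases apart, Jon65Aiii with Jon65Aii, 630 bases apart, Jon99Cii with Jon99Ci, 610 bases apart, and, in ORE50/ORC4 embryos, CG30025 with deltaTry. The first 5 pairs named are each transcribed from a common strand. In the pair alphaTry and epsilonTry, and in those with deltaTry or Jon99Cii, at least 1 gene had split reads.

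The lola gene lies on 2R from 10481894 to 10543291, 794 kb from the trypsin cluster. Members on 2R were called lower 12 of 14 times in ORC4 and 13 of 14 in ORE50/ORC4 embryos, beside 18.6% and 27.0% of all tested genes on 2R. Those on other chromosome arms were called lower 11 of 16 times in ORC4 and 13 of 16 in ORE50/ORC4 embryos, beside 16.9% and 27.0% of all tested genes elsewhere, with medians of -4.41 and -4.74 against -3.28 and -4.20 for 2R. All 5 members on 3R were called lower in each mutant. Copies with split reads, on 2R and 3R, count singly in these numbers.

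The uneven loss left a different mixture of transcripts. In ORC4 embryos Try29F, Jon65Aiv, yip7, Jon65Aiii, lambdaTry and zetaTry made up 84.2% of the summed member TPM, and in ORE50/ORC4 embryos Try29F, Jon65Aiii, lambdaTry, yip7, Jon65Aiv and kappaTry made up 86.5%, against 52.8% for the 6 most abundant members of wild type. Those were Jon99Cii, Jon65Aiv, yip7, Try29F, Jon99Fii and Jon99Fi. Try29F alone held 28.5 ± 0.467% of it in ORC4 embryos (SD, n = 4), 29.7 ± 3.65% in ORE50/ORC4 embryos (SD, n = 4), against 7.58 ± 2.70% in wild type (SD, n = 5). Jon65Aiii held 14.5 ± 4.21% and 28.1 ± 5.45% in the same mutants, against 5.60 ± 0.526% in wild type. Jon99Cii held 0.229 ± 0.109% in ORC4 and 0.132 ± 0.0700% in ORE50/ORC4 embryos, against 12.1 ± 2.54% in wild type.

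A set of 13 members was at least 16-fold lower in each mutant and is described together here, with no test, since it was picked by those values and both mutants share the wild-type libraries. It holds Jon25Bi, Jon25Bii, Jon65Ai, Jon65Aii, Jon99Cii, Jon99Ciii, Jon99Fi, Jon99Fii, betaTry, deltaTry, epsilonTry, CG30025 and CG30031. Their sum ran from 7.44 to 30.9 TPM in ORC4 embryos and from 4.49 to 6.33 TPM in ORE50/ORC4 embryos, against 1089 to 4381 TPM in wild type. They made up 0.985% of the member transcripts in ORC4 and 0.525% in ORE50/ORC4 embryos, against 47.2% in wild type. The same 13 summed to between 1.41 and 11.2 TPM in wild type aged 2 to 4 h. Members just inside the 16-fold limit, a log2 fold change of -4, were CG30031 at -4.62 in ORC4 embryos and CG30025 at -4.86 in ORC4 and -5.09 in ORE50/ORC4 embryos. Just outside it in at least 1 mutant were Jon44E at -4.71 and -3.96, alphaTry at -2.77 and -4.43, gammaTry at -3.80 and -6.61, and etaTry at -2.51 and -3.93, with ORC4 before ORE50/ORC4.

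The 13 had a higher median spread among wild-type libraries than the other members. Their coefficient of variation over the 5 wild-type libraries had a median of 48.9%, against 23.6% for the 16 other members that reached a mean of 10 TPM in any group, although gammaTry among those 16 had the highest single value, 93.6%. Wild-type library 1 had the highest value for 13 of the 13 and library 2 the lowest for 12. Among the 16 others, library 1 was the highest for 5 and library 2 the lowest for 11. Such ranks over all tested genes were not counted. The median ratio of library 1 to library 2 was 3.83 for the 13, against 1.49 for the 16 others. Across all 29 members the coefficient of variation in wild type and the percentage of the wild-type level left had a Spearman's rho of -0.776 in ORC4 and -0.797 in ORE50/ORC4 embryos. Without the 6 trypsins with split reads it was -0.857 and -0.825 over 23 members. These points share libraries and the wild-type mean enters both measures, so no p-value is given. The least variable members in wild type were lambdaTry at 7.87%, kappaTry at 9.87%, Try29F at 11.8%, Ser6 at 12.3%, etaTry at 13.9% and zetaTry at 14.5%. Of these, etaTry stood apart with 18.2% of wild type left in ORC4 and 6.21% in ORE50/ORC4 embryos.

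**Figure D4:**
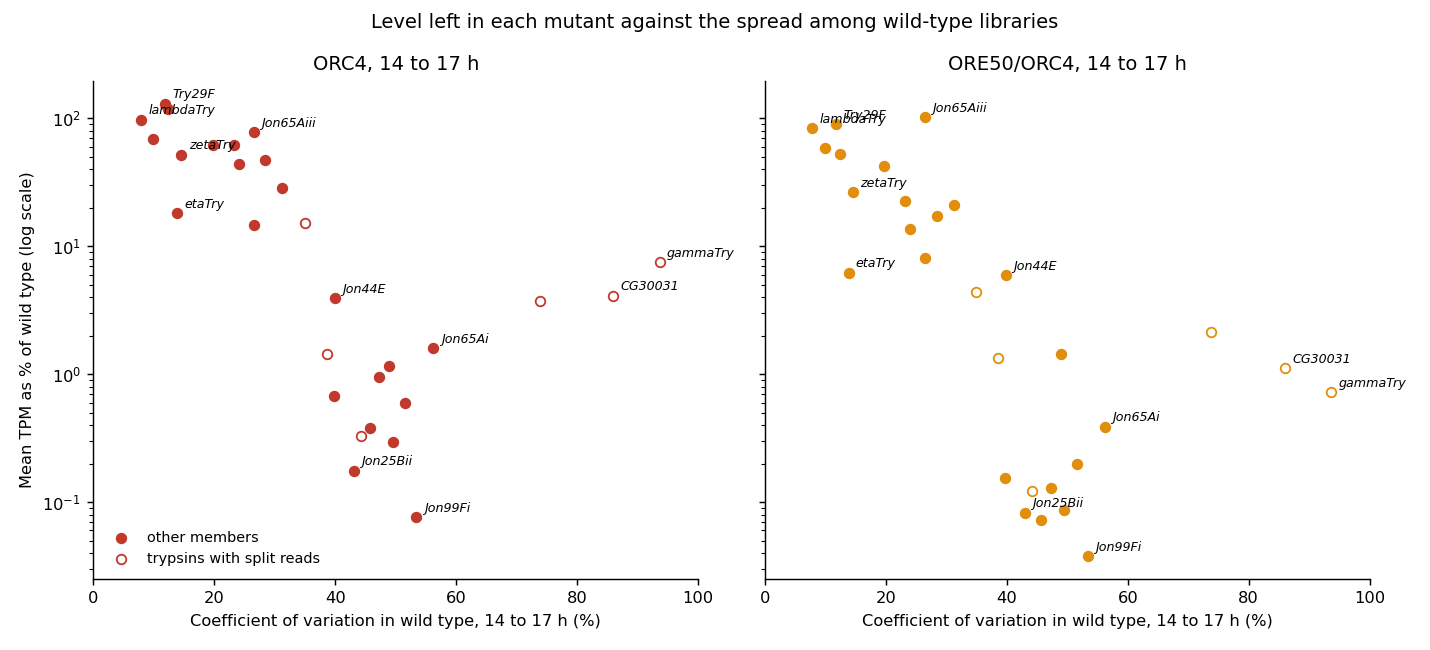
Coefficient of variation over the 5 wild-type libraries at 14 to 17 h (x axis, percent) against the mean TPM left in ORC4 (left) and ORE50/ORC4 embryos (right) as a percentage of wild type (y axis, log scale), for 29 members. Open points are the 6 trypsins with split reads. The 6 members with the lowest coefficients of variation lie at 52.1% or more of wild type in ORC4 embryos, except etaTry at 18.2%, and Jon99Fi at 53.4% lies lowest in each panel.

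Single libraries moved across many members at once. ORC4 library 4 was the lowest of its group for 14 of the 15 members with at least 1 TPM in each ORC4 library, and ORC4 library 3 the highest for 12. The ratio of library 4 to the median of the other ORC4 libraries had a median of 0.443 over these members. ORE50/ORC4 library 3 was the highest for 11 of 14 such members and library 2 the lowest for 10. Wild-type library 2 was the lowest for 23 of 27 and library 1 the highest for 17. These ranks were not counted over all tested genes. Leaving out each library in turn gave 19 to 24 members lower in ORC4 embryos and 24 to 26 in ORE50/ORC4 embryos, with 0 higher throughout. Some fold changes called in ORC4 embryos moved by over 1.5 times in these omissions, in 8 members, all further from wild type. The log2 fold change of CG30031 was -7.13 without ORC4 library 1, that of deltaTry -10.07 without library 2, that of CG30025 -5.94 and of gammaTry -4.78 without library 3, and that of epsilonTry -7.97 without library 1. Jon65Aii was at -7.11 without ORC4 library 2, Jon99Ciii at -7.31 without library 1 and Jon99Fi at -11.13 without library 3. In ORE50/ORC4 embryos the 5 such members were Jon25Bi and Jon25Bii, with 0 counts left without library 1, and CG30031 at -7.30, Jon99Ciii at -10.26 and Jon99Fii at -11.72 without library 3.

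The mutants were then compared with each other, which tests whether the transheterozygote differs from ORC4. Most members were lower still in ORE50/ORC4 embryos by their fitted value, but few differences passed the test. With edgeR's quasi-likelihood test 6 of the 30 members were lower in ORE50/ORC4 than in ORC4 embryos, beside 17.4% of all tested genes called lower, and 1 was higher, beside 19.9% called higher. The median of the 30 was -0.95, and that of all tested genes 0.034. The lower ones were etaTry at -1.42 (SE 0.27, adjusted p = 0.00136), alphaTry at -1.66 (SE 0.50, adjusted p = 0.0203), thetaTry at -1.34 (SE 0.41, adjusted p = 0.0219999), Jon65Aiv at -1.54 (SE 0.32, adjusted p = 0.00272), yip7 at -1.30 (SE 0.40, adjusted p = 0.0214) and Ser6 at -1.01 (SE 0.29, adjusted p = 0.0162). Every ORE50/ORC4 library lay below every ORC4 library for 4 of the 30, beside 20.2% of all tested genes, namely etaTry, Jon65Aiv and, with no call, epsilonTry and Jon65Ai. The sum of the 6 trypsins with split reads was also lower, at -1.64 (SE 0.48, adjusted p = 0.0172), while the sum over the whole trypsin cluster was at -0.43 (95% interval -1.04 to 0.17, adjusted p = 0.243). Jon65Aiii went the other way at 0.53 (SE 0.18, adjusted p = 0.0329), with all ORE50/ORC4 libraries above all ORC4 libraries, beside 7.29% of all tested genes.

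The 13 members at least 16-fold lower in each mutant gave no call between the mutants when taken singly. Each had fewer than 10 counts in every ORE50/ORC4 library. Of the 13, betaTry, deltaTry, CG30031 and CG30025 belong to the trypsin sum with split reads, which was called lower at -1.64. Intervals of the log2 difference were wide, such as -3.81 to 2.31 for Jon25Bii, -5.44 to 3.65 for Jon99Fi and -4.41 to 2.68 for deltaTry. The retained members were better measured, with -0.52 to 0.38 for lambdaTry, -0.54 to 0.33 for kappaTry and -0.97 to 0.22 for Try29F. A single locus was called lower, that of the lone gene Ser6, whose counts were often fractional. The sums of the Jon65A cluster and the Jon99C genes were at -0.53 (95% interval -1.11 to 0.039, adjusted p = 0.131) and -1.08 (95% interval -2.27 to 0.10, adjusted p = 0.138).

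Several of these calls were lost when single libraries were left out or when depth was a covariate. The call for thetaTry was lost without ORC4 library 1 or 3 or ORE50/ORC4 library 2 or 4 (-1.16 to -1.28, adjusted p from 0.0554 to 0.0646). That for alphaTry was lost without ORC4 library 1 or ORE50/ORC4 library 1, 2 or 4 (-1.37 to -1.65, adjusted p from 0.0543 to 0.0601), and that for yip7 without ORC4 library 3 or ORE50/ORC4 library 1 or 2 (-1.03 to -1.22, adjusted p from 0.0521 to 0.0664). Ser6 was lost without ORC4 library 1 (-0.85, adjusted p = 0.0523). Jon65Aiii was lost without ORC4 library 1, 2 or 4 or ORE50/ORC4 library 1, 3 or 4 (0.46 to 0.55, adjusted p from 0.0572 to 0.0801). With the depth of the library as a covariate, estimated from wild type, yip7 was at -1.50 (adjusted p = 0.0966), Ser6 at -0.80 (adjusted p = 0.223) and Jon65Aiii at 0.64 (adjusted p = 0.126), no longer called, though yip7 and Jon65Aiii were no nearer 0. The calls for etaTry, thetaTry, alphaTry and Jon65Aiv held, at -1.49, -1.87, -2.41 and -1.54 (adjusted p from 0.01101 to 0.0437). With limma on log2(TPM + 1), Jon65Aiii was at 0.39 (adjusted p = 0.0936). Over all genes, 1992 were lower and 2271 higher between the mutants, but 2673 lower and 846 higher with limma on log2(TPM + 1), and 2132 lower and 1936 higher with RLE scaling in edgeR, so which direction held more genes depended on the setting.

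The stages of wild type were compared to show when these genes come on. The 34 members summed to between 2978 and 7302 TPM in the 5 libraries aged 14 to 17 h and to between 6.38 and 27.8 TPM in the 3 libraries aged 2 to 4 h. With edgeR's quasi-likelihood test, 29 of 30 tested members were called higher in the older embryos and 0 lower, beside 48.1% of all 11636 tested genes called higher and 41.8% lower. Each of the 29 was higher by 16-fold or more, beside 22.9% of all tested genes. All late libraries were above all early ones for 27 members, beside 47.1% of all tested genes. Of the 30, 19 had fewer than 10 counts in every early library and passed the filter through the late group. The exception was Jon74E, at 0.0928 to 0.826 TPM late and 0.566 to 1.06 TPM early, with a log2 fold change of -1.02 (95% interval -2.21 to 0.17, adjusted p = 0.0934).

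Early values were mostly under 1 TPM and scattered, and early library 2 was the lowest for many members. Jon99Cii was the most abundant in early libraries 1 and 3, with 5.35, 0 and 4.33 TPM in libraries 1 to 3. Try29F was steadier, with 2.901, 2.44 and 2.23 TPM. Jon25Biii had 2.02, 0.495 and 2.21 TPM, Jon25Bii 0.4297, 0 and 0.6296 TPM and Jon25Bi 0.336, 0.699 and 0.984 TPM. None of these values came near the late libraries of the same gene. In the Jon65A cluster, yip7 had 1.28, 0 and 0.767 TPM, Jon65Aiv 1.62, 0.199 and 1.68 TPM, Jon65Aiii 0.609, 0.212 and 1.49 TPM and Jon65Ai 0.199, 0 and 0.194 TPM. Jon65Aii had 0 counts in the 3 early libraries and was at least 185-fold higher at 14 to 17 h, with 3 counts over the early group as the floor. Jon99Ciii had 0.637, 0 and 0.358 TPM, Jon99Ci 0.586, 0.406 and 0.572 TPM, Jon99Fii 0.847, 0 and 1.59 TPM and Jon99Fi 0.864, 0 and 0 TPM. Jon44E had 0.249, 0 and 0.426 TPM. None of these reached the lowest late library of its gene.

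The trypsins were as low early on. The early libraries held 0.595, 0.206 and 0.0969 TPM of lambdaTry, 0.303, 0 and 0 TPM of kappaTry and 0.699, 0 and 0.293 TPM of zetaTry. For kappaTry, with 3 early counts, the late level was 736-fold higher per depth (95% counting interval 252-fold to 3571-fold). They held 0.105, 0 and 0 TPM of etaTry, 0.352, 0 and 0.172 TPM of thetaTry and 0.965, 0 and 0.707 TPM of iotaTry. With its 1 early count, etaTry was 804-fold higher late (144-fold to 31764-fold). The middle genes had 2.05, 0 and 1.19 TPM for alphaTry, 0.7099, 0 and 1.73 TPM for epsilonTry and 0.267, 0.357 and 0.517 TPM for betaTry. The split copies had 0.694, 0.155 and 3.15 TPM for gammaTry, 0.208, 0.0433 and 0.672 TPM for CG30031, 0.694, 0.155 and 0 TPM for CG30025 and 0.694, 0.155 and 0 TPM for deltaTry. Early and late libraries overlapped for gammaTry and CG30025, whose late reads were split unevenly among copies. Ser6 had 0.106, 0 and 0.208 TPM early, 3 counts in all, and was 364-fold higher late (124-fold to 1763-fold).

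The fitted log2 fold changes of the 29 called members, leaving out Jon65Aii with its 0 early counts, ran from 4.45 for gammaTry and 5.03 for CG30025 to 10.04 for Jon99Fi. Genes retained in the mutants were among those with large changes, such as lambdaTry at 8.24 (SE 0.28, adjusted p = 2.58e-09), Try29F at 7.09 (SE 0.18, adjusted p = 7.91e-10) and Jon65Aiii at 8.26 (SE 0.42, adjusted p = 3.02e-08). So were genes lost there, such as Jon25Bii at 8.40 (SE 0.61, adjusted p = 4.20e-07) and Jon99Fii at 8.47 (SE 0.67, adjusted p = 8.91e-07). The smallest change among called genes with whole counts was that of iotaTry at 5.04 (SE 0.47, adjusted p = 2.98e-06). The call for gammaTry, at 4.45 (SE 1.40, adjusted p = 0.0123), was lost without early library 2 (4.10, adjusted p = 0.0518) and with limma on log2(TPM + 1) (3.04, adjusted p = 0.0506). Without wild-type library 1 of the late group Jon74E was called lower, at -1.58 (adjusted p = 0.0122). With so few early counts, leaving out early library 1 or 3 moved the fold by over 1.5 times for 18 members, for example to 12.34 without library 1 and 8.63 without library 3 for kappaTry and to 14.38 and 9.33 for Jon99Fi, all still called.

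Other lists put the members beside related genes. Their counts stand beside 17.2% of all tested genes called lower and 15.5% higher in ORC4 embryos and 27.0% called each way in ORE50/ORC4 embryos. A list of 55 other gut-type serine proteases, of which 30 were tested, had 13 lower and 3 higher in ORC4 and 18 lower and 2 higher in ORE50/ORC4 embryos, with median log2 fold changes of -0.85 and -1.22. Leaving out ORC4 library 1 gave 2 higher in ORC4 embryos. Its most abundant genes in wild type were CG11911 and CG9673, and CG11911 had 98.1 ± 28.9 TPM in ORC4 embryos (SD, n = 4), 83.6 ± 35.4 TPM in ORE50/ORC4 embryos (SD, n = 4), against 245 ± 66.2 TPM in wild type (SD, n = 5). Its change was -1.37 (adjusted p = 0.006097) in ORC4 and -1.45 (adjusted p = 0.00265) in ORE50/ORC4 embryos, and that of CG9673 -0.99 (adjusted p = 0.000817) and -0.93 (adjusted p = 0.000672). A change beyond 16-fold was seen in this list for CG18180 alone, which had 0 counts in all 8 mutant libraries. CG1304 was among those called higher. It had 41.6 ± 13.8 TPM in ORC4 and 10.95 ± 4.27 TPM in ORE50/ORC4 embryos, against 4.84 ± 1.35 TPM in wild type, with changes of 3.01 (adjusted p = 1.53e-05) and 1.23 (adjusted p = 0.00944). CG18180 and CG1304 were singled out after their values were seen.

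**Figure D5:**
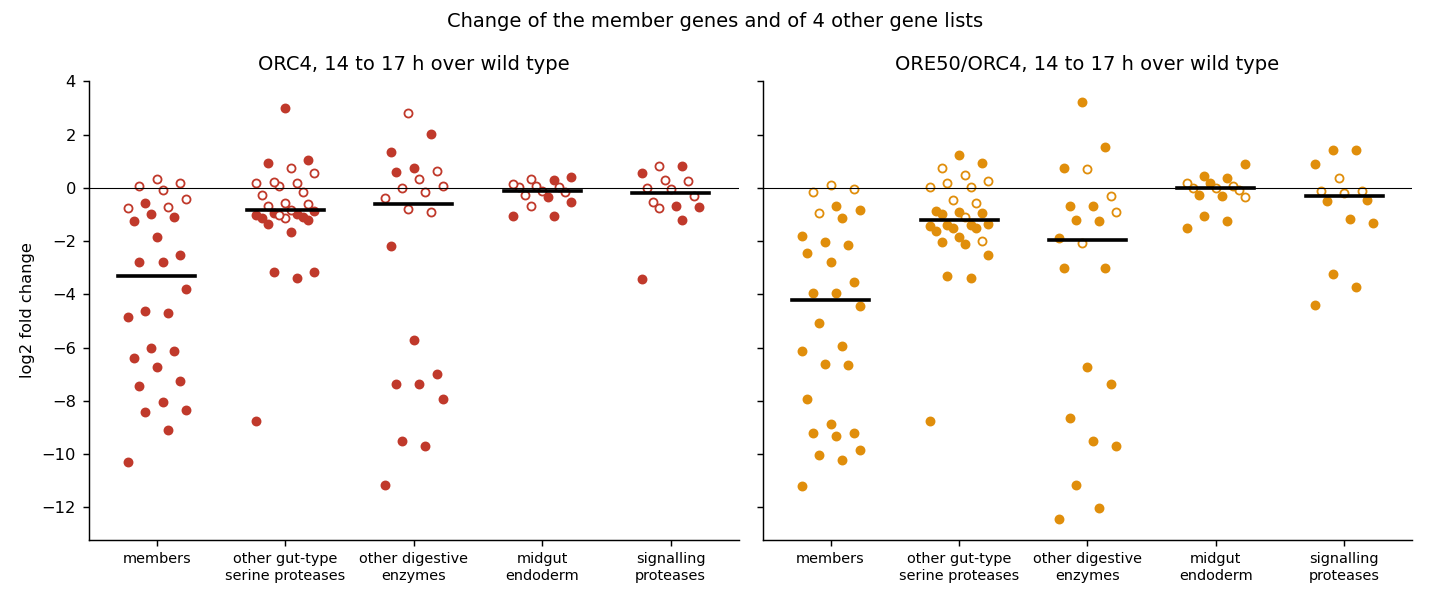
Log2 fold change of each tested gene in ORC4 (left) and ORE50/ORC4 embryos (right) from wild type at 14 to 17 h, for the members and 4 other lists. Filled points passed an adjusted p under 0.05, open points did not, and bars are medians. The member medians lie at -3.30 and -4.20, those of the other gut-type proteases at -0.85 and -1.22, and those of the midgut endoderm list near 0.

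Signalling and developmental serine proteases share the catalytic fold but act in clotting, immune and patterning cascades. Of 14 tested, 4 were lower and 2 higher in ORC4 and 7 lower and 3 higher in ORE50/ORC4 embryos, with medians of -0.18 and -0.32. Without wild-type library 2, 7 were lower in ORC4 embryos. The most abundant were Hayan, not called in either mutant, and easter (ea), a protease of the dorsal-ventral pathway, at -1.22 (adjusted p = 0.000473) in ORC4 and -4.39 (adjusted p = 6.23e-08) in ORE50/ORC4 embryos. Among other digestive enzymes, maltases, amylases, lysozymes and lipases, 9 of 22 tested were lower and 4 higher in ORC4 and 15 lower and 3 higher in ORE50/ORC4 embryos, with medians of -0.59 and -1.97. Leaving out ORE50/ORC4 library 1 or 2 or wild-type library 1, 3 or 6 gave 2 higher in ORE50/ORC4 embryos. The most abundant, the maltase Mal-A3, was at 0.061 (adjusted p = 0.847) in ORC4 and -0.69 (adjusted p = 0.0132) in ORE50/ORC4 embryos. The lysozyme LysD had 0.745 ± 0.917 TPM in ORC4 embryos and 0 in the ORE50/ORC4 libraries, against 197 ± 46.6 TPM in wild type.

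Genes listed as markers of midgut endoderm were measured in the same libraries. Whether each is confined to the midgut was not checked, and their part in the protease values was not tested. Their summed level ran from 286 to 314 TPM in ORC4 and from 269 to 319 TPM in ORE50/ORC4 embryos, against 287 to 318 TPM in wild type, and no marker of the 15 was at 0 in all libraries of a group. Of the 15, 4 were lower and 2 higher in ORC4 and 5 lower and 4 higher in ORE50/ORC4 embryos, to be read against the shares over all tested genes given above, with medians of -0.13 and -0.000721. The most abundant, mex1, a gene of midgut cells, had 71.2 ± 11.6 TPM in ORC4 and 94.1 ± 13.8 TPM in ORE50/ORC4 embryos, against 53.96 ± 10.5 TPM in wild type, at 0.33 (adjusted p = 0.0731) and 0.89 (adjusted p = 0.000135). The transcription factor gene fkh was at -0.15 (adjusted p = 0.199) and -0.27 (adjusted p = 0.0223). GATAe, which encodes an endodermal GATA factor, was higher in each mutant, at 0.29 (adjusted p = 0.00915) and 0.37 (adjusted p = 0.00111). Npc1b, a sterol transporter gene of midgut cells, was lower, at -1.05 (adjusted p = 0.001004) and -1.06 (adjusted p = 0.0005899), as were Alp4, Men-b and cad.

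Marker lists of other tissues in the whole embryo are given as counts, since their share in the protease values was not tested. Called lower and higher were 2 and 0 of 5 tested hindgut and Malpighian tubule genes in ORC4 embryos and 1 and 1 in ORE50/ORC4 embryos. For visceral mesoderm they were 0 and 1 of 8 in ORC4 and 2 and 3 in ORE50/ORC4 embryos, for body wall muscle 2 and 0 of 10 and then 1 and 2, and for the nervous system 1 and 0 of 10 and then 5 and 1, in the same order. Epidermis and cuticle genes gave 1 and 3 of 10 in ORC4 and 5 and 3 in ORE50/ORC4 embryos, hemocytes 3 and 1 of 9 and then 3 and 2, fat body 1 and 1 of 4 in each mutant, and trachea 1 and 2 of 6 in each mutant. Salivary gland genes were lower in 0 and higher in 1 of 6 in ORC4 embryos, and lower in 0 and higher in 5 in ORE50/ORC4 embryos. Early patterning genes were lower in 5 and higher in 0 of 11 in ORC4 embryos, and lower in 7 and higher in 0 in ORE50/ORC4 embryos. The summed level of the early patterning list ran from 163 to 201 TPM in ORC4 and from 97.5 to 134 TPM in ORE50/ORC4 embryos, against 171 to 207 TPM in wild type of that age. Among the 2 to 4 h libraries it was 925 TPM or more. Kr was at 0 in all libraries aged 14 to 17 h. These small counts moved with single libraries, from 0 to 5 body wall muscle genes lower in ORC4 embryos for example, and no statement on the proteases rests on them.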

How the data were processed

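Polyadenylated RNA of whole Drosophila melanogaster embryos was sequenced in 16 libraries. Per the submitters' processing notes, base calling used CASAVA 1.8.2 and abundances came from kallisto on genome build dm6, and the kallisto version is not given in the sources used here. Each deposited table holds, per the file headers, an estimated count and a TPM value for each of 17753 genes. The listed length equals the whole genomic span for 99.3% of the genes matched to the annotation, introns included, so TPM of intron-bearing genes may be understated. Coordinates are from the Ensembl annotation of BDGP6.

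Estimated counts, as the authors deposited them, were rounded and tested with edgeR 4.0.16 (R 4.3.3) by quasi-likelihood, with TMM scaling, a filter (filterByExpr, minimum count 10) and Benjamini-Hochberg adjustment over all genes tested. The 13 libraries aged 14 to 17 h and their 3 groups were fitted together, and the 8 wild-type libraries in a second fit. A call is an adjusted p under 0.05, and standard errors are the log2 fold change divided by the root of F. Rows of locus and shared-read sums replaced their members in otherwise identical fits. The fitting code was tested on simulated counts, in which changed genes had higher counts and smaller changes than the scarcest members here. Library totals of 9025882 to 32521626 counts put the floor of 3 counts at 0.0922 to 0.332 CPM. Alternatives were DESeq2 1.42.0, edgeR with RLE scaling, limma 3.58.1 on log2 TPM plus 0.1 or plus 1, other filters and thresholds, fits of only the groups compared, a depth term, wild-type libraries of the same depth class, a replicate block and leaving out each library.

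Replicate numbers were shared between groups, but libraries of the same number did not deviate together in every pair (correlations from -0.135 to 0.410), so no block was used. No replicate pair agreed within sampling noise (chi-square per degree of freedom of 5.29 or more). The members and gene lists were chosen with earlier results of these data known. Members with a mean of 10 TPM or more in any group are given in every library and the others by range. Of each list the counts, the median and the most abundant genes are given. Of 55 other gut-type protease names matched, 30 could be tested.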

Additional observations from a re-analysis of the deposited data

Results flagged for a closer look

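In 7 of the 87 sets of libraries tested, 1 library stood apart from the others of its group. For independent sets chance would give about 1 in 20. These sets reuse the same libraries, and those of Jon25Bii and Jon25Bi in ORE50/ORC4 embryos are mostly 0, so the count cannot be set against that rate. ORE50/ORC4 library 1 held the only reads of Jon25Bii (0.494 TPM) and Jon25Bi (0.515 TPM) in that group. Wild-type library 1 had 317 TPM of Jon25Bi at 14 to 17 h, above the others. Wild-type library 2 was low for kappaTry (72.3 TPM) and zetaTry (116 TPM). ORC4 library 1 had 14.2 TPM of CG30031, a copy with split reads, and ORE50/ORC4 library 2 had 274 TPM of Jon65Aiii, slightly under the others.

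By the direct edgeR comparison of ORE50/ORC4 with ORC4 embryos, the change from wild type differed for 7 of the 30 tested members. Of these, 6 were lower and 1 higher in ORE50/ORC4 embryos, beside 17.4% of all tested genes called lower and 19.9% higher. The log2 difference was -1.42 for etaTry, -1.34 for thetaTry, -1.66 for alphaTry, -1.30 for yip7, -1.54 for Jon65Aiv, 0.53 for Jon65Aiii and -1.01 for Ser6. Sequencing depth moves with this comparison, since all ORC4 libraries are deep and all ORE50/ORC4 libraries shallow, and with depth as a covariate estimated from wild type the differences of yip7, Ser6 and Jon65Aiii were no longer called.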

How the results depend on the processing

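The counts of members lower than wild type kept within 1.5 times of the reported value, with 0 higher, under the alternatives run, apart from the replicate block. Leaving out each library gave 19 to 24 members lower and 13 to 15 at least 16-fold lower in ORC4 embryos, and 24 to 26 and 14 to 17 in ORE50/ORC4 embryos. Against wild-type libraries of the same depth class, 20 members were lower in ORC4 and 24 in ORE50/ORC4 embryos. The replicate numbers share only a label. With the replicate number as a block, 22 members were lower in ORC4 embryos (20 in the same libraries without it) and 1 member and 1 locus, both Try29F at 0.51 (adjusted p = 0.0168), were higher. With the block, 25 were lower in ORE50/ORC4 embryos (24 without it), 7 lower and 1 higher between the mutants (6 and 1 without it), and 29 higher with age (29 without it).

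Between the mutants the counts depended on the setting. Members lower numbered 2 at an adjusted p under 0.01, 11 with limma on log2(TPM + 0.1) and 4 with depth as a covariate, and 3 to 8 when single libraries were left out, with 3 without ORC4 library 1 or ORE50/ORC4 library 2. Members higher numbered 0 at an adjusted p under 0.01, at 2-fold or more, with the depth covariate and with either limma fit, and 0 to 1 over left-out libraries. Loci lower numbered 0 at an adjusted p under 0.01 and with the depth covariate, 2 with limma on log2(TPM + 0.1), and 0 to 3 over left-out libraries. The median of all genes moved from 0.034 to -0.12 with limma on log2(TPM + 0.1). With age, limma on log2(TPM + 1) gave 1 member and 1 locus lower, Jon74E, and left-out libraries gave 0 to 1 of each, without wild-type library 1. The cause of these differences was not tested.

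Signs that turned round were all of changes without a call. In ORC4 embryos against wild type lambdaTry was at 0.056 in the paired libraries, 0.050 with the block and -0.22 to 0.068 over left-out libraries, and Jon74E at -0.17 and -0.011 with limma. Try29F in ORE50/ORC4 embryos against wild type ran from -0.29 to 0.12 over left-out libraries. Between the mutants such ranges were -0.23 to 0.078 for lambdaTry, -0.26 to 0.029 for kappaTry, -0.28 to 0.35 for betaTry, -2.69 to 0.49 for CG30031, -0.79 to 0.85 for CG30025 and -1.43 to 0.88 for deltaTry, and CG30025 was at 1.43 with the depth covariate. A sum of near-identical copies by protein identity and a motif search of promoters were not run, since no sequence was used here. Depth limits the scarcest members, with 15 of 30 under 10 counts in every ORE50/ORC4 library.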
